A study of Mus musculus with 6 samples.

Results

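5S rRNA fragments were taken as the reads of 18 to 35 nt that matched, exactly and in sense, any of the 180 GENCODE M21 genes of biotype rRNA whose symbol starts with n-R5s. They formed 2094 distinct sequences over the 6 libraries, and each library held 813 to 1097 of them among 234312 to 7131041 distinct sequences of these lengths. The match used no measured level. The 180 genes hold 149 different sequences and lie on 21 chromosomes, and 25 of them, all on chromosome 8, carry one shared sequence of 119 nt. Of the 5S reads, 93.2% to 98.8% per library matched this shared sequence, so positions are counted from its base 1. Which copy gave a read cannot be told.

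The libraries came from cultured mouse spermatogonial stem cells (SSC), germ cells of the testis that renew themselves. The cells descend from an F1 male (C57BL/6 by DBA2, 15 days old) that carried actin-EGFP as a transgene, while the strain label reads C57BL/6, and all were grown on embryonic fibroblast (MEF) feeders, so they share these features. There was 1 library in each of 6 groups: wild type RNA treated with NaIO4 for 1 h, mhen1-/- RNA treated in the same way, untreated mhen1-/- RNA, untreated mili-/- RNA, RNA recovered from wild type with an antibody to MILI, and untreated wild type RNA. The knockouts, called Hen1 knockout and Mili knockout here, were made with spCas9 and guide RNAs and picked as single colonies checked by Sanger sequencing, so each is 1 clone. The series is about the function of the methyltransferase Hen1. Both knockouts and the immunoprecipitate are set against the same untreated wild type library, so those comparisons share their control.

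5S rRNA is a small RNA of the large ribosomal subunit, made by RNA polymerase III from many gene copies, and its primary transcript ends in a short run of U. Hen1 (gene Henmt1) adds a methyl group to the 2′ hydroxyl of the last nucleotide of piRNAs, the small RNAs of the germ line that MILI (gene Piwil2) and other Piwi proteins bind. NaIO4 oxidises RNA ends with free 2′ and 3′ hydroxyls, which then fail to enter a library, while a modified end is spared.

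GACCGCC, bases 89 to 95 of the shared sequence, is where most reads stopped, and capitals mark it in the reads that end there. Shown here are leading fragments of 3 of the groups described: the commonest read of 5 libraries, which ends in GACCGCC, the commonest read that ends at base 119 in 4 libraries, and the leading immunoprecipitate read from inside the RNA.

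bases 71 to 95: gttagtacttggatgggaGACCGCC

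bases 89 to 119: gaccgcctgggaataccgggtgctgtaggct

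bases 20 to 46: tgaacgcgcccgatctcgtctgatctc

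Libraries held 2604390 to 25240941 reads of 18 to 35 nt, and shares are percentages of these, or RPM (reads per 1000000 of them) for single fragments. No group had a replicate, so no test was made. Intervals are 95% and cover counting error of the reads only. microRNA genes of spermatogonial cells were detected in every library (11 of 11), at 25.1% to 51.6% of microRNA reads, those of the fibroblast feeders (5 of 6) at 0.637% to 1.97%, the highest in the untreated Hen1 knockout, and those of blood (4 in the annotation) at 0.0349% to 0.0735%. Small RNA reads do not check the edits: exact sense reads of Henmt1 numbered 88 in the untreated Hen1 knockout, against 21 in untreated wild type, and those of Piwil2 numbered 2 in the Mili knockout, against 289 in untreated wild type. A share also moves with the rest of its library. microRNA reads were 1.5% of the library in wild type with NaIO4, 2.82% in Hen1 knockout RNA with NaIO4, 7.38% in untreated Hen1 knockout RNA, 34.1% in the Mili knockout, 0.817% in the immunoprecipitate and 19.2% in untreated wild type, and directions below are by share of library reads. Values divided by microRNA reads are given beside the fragment groups and RNA classes. The microRNA share was itself 12.8-fold lower with NaIO4 in wild type and 2.62-fold lower in the Hen1 knockout. A NaIO4 ratio over microRNA reads is thus relative to RNAs that fell with treatment. A value above 1 on that scale does not by itself show that an end resists NaIO4.

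5S reads numbered 454584 in wild type with NaIO4, 328391 in Hen1 knockout RNA with NaIO4, 57318 in untreated Hen1 knockout RNA, 122749 in the Mili knockout, 68730 in the immunoprecipitate and 63304 in untreated wild type. Their shares were 4.42% (4.41 to 4.43), 12.6% (12.6 to 12.6), 0.490% (0.486 to 0.494), 2.55% (2.54 to 2.57), 0.272% (0.270 to 0.274) and 0.865% (0.858 to 0.871) in that order. The Hen1 knockout with NaIO4 was the highest and the immunoprecipitate the lowest.

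These totals join fragments that behaved differently. The reads were divided into 4 groups that do not overlap: those whose last base is base 95 (GACCGCC-ending), those that start at base 1 (5′-end), those that end at base 119 (3′-end), and the rest. GACCGCC-ending reads made up 96% of 5S reads in wild type with NaIO4, 98.4% in Hen1 knockout RNA with NaIO4, 62.2% in untreated Hen1 knockout RNA, 86.9% in the Mili knockout, 2.05% in the immunoprecipitate and 75.4% in untreated wild type. In the immunoprecipitate the leading group was the 5′-end reads, at 61.0%, which held 0.131% to 12.8% of 5S reads in the other 5 libraries. These percentages do not depend on the rest of the library. The 3′-end reads reached 7.02% in the untreated Hen1 knockout, 7.31% in the Mili knockout and 8.47% in untreated wild type, and were under 0.5% of 5S reads in the other 3 libraries.

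**Figure D1:**
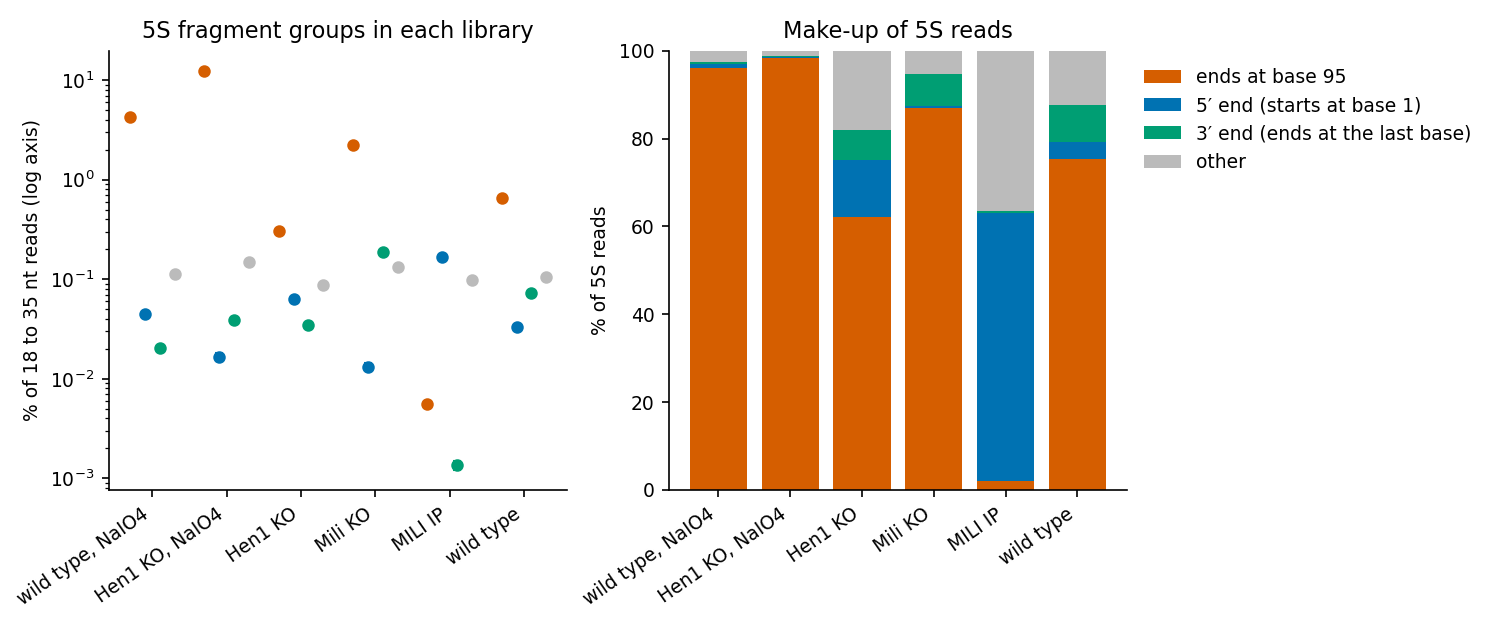
Share of the library (left, log axis, with 95% counting intervals mostly smaller than the points) and make-up of 5S reads (right, %) for the 4 fragment groups in the 6 libraries, 1 library per group. Reads that end at base 95 fill 96% and 98.4% of the bars of the NaIO4 libraries and 2.05% of the bar of the MILI immunoprecipitate (MILI IP), where 5′-end reads take 61.0%.

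**Figure D2:**
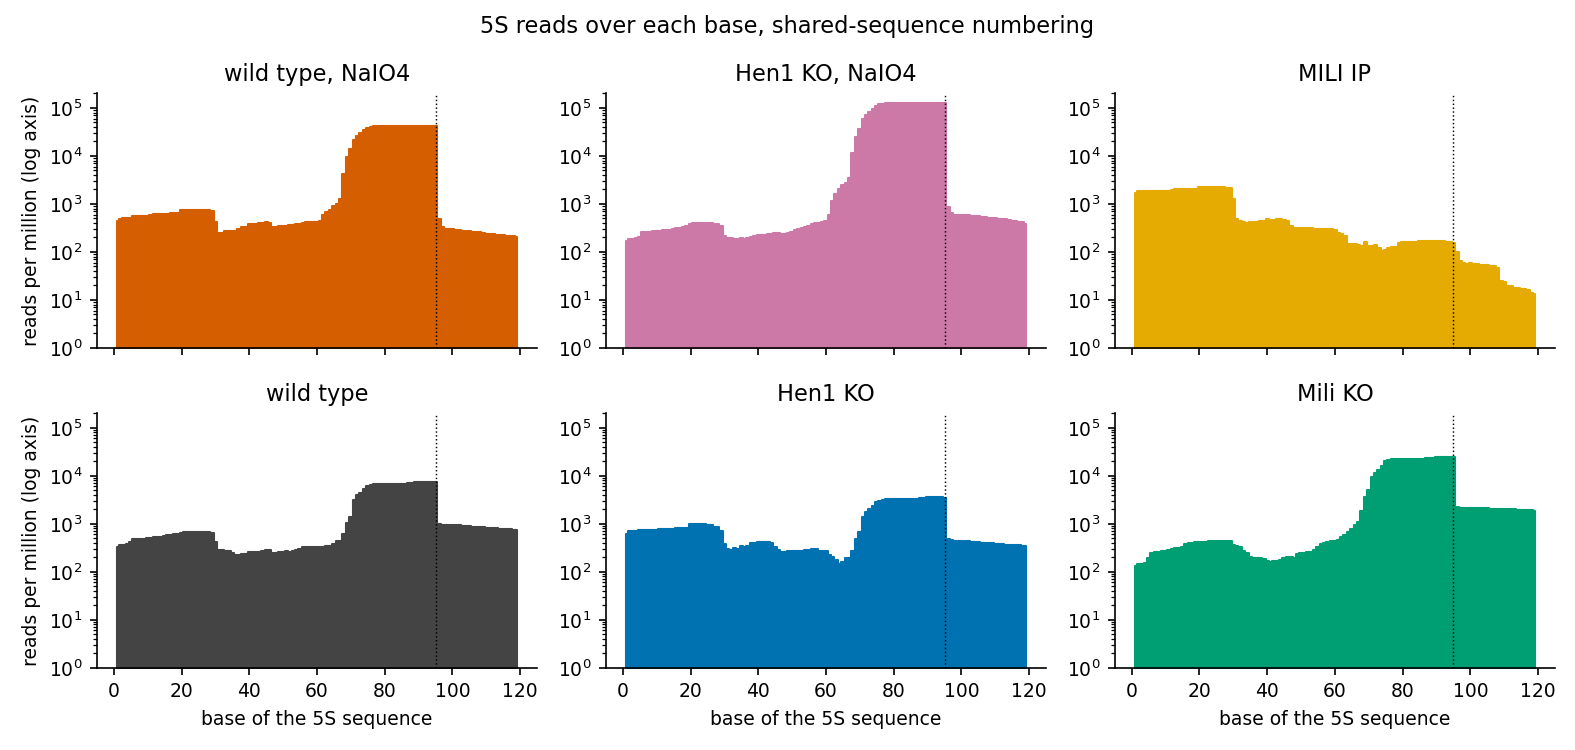
Coverage (RPM, log axis) by 5S reads over each base of the 119-nt 5S sequence in each library, with base 95 marked by a dotted line. All libraries but the MILI immunoprecipitate have a plateau that stops at base 95, while the MILI immunoprecipitate is highest over bases 1 to 30.

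The comparison of NaIO4-treated with untreated RNA asks which 3′ ends resist oxidation. GACCGCC-ending reads numbered 436240 in wild type with NaIO4, against 47740 in untreated wild type. They numbered 323093 in the Hen1 knockout with NaIO4, against 35650 in the untreated Hen1 knockout. Treatment thus went with a 6.51-fold higher share in wild type (6.45 to 6.57) and a 40.7-fold higher one in the Hen1 knockout (40.3 to 41.2), and it was higher with NaIO4 in both genotypes. Divided by microRNA reads, the ratios were 83.5 in wild type and 107 in Hen1 knockout RNA, so the ratio of the knockout's ratio to that of wild type, 6.26 (6.17 to 6.35) by share, depends on the total chosen. The difference between the genotypes has no replicate and was not tested.

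Single sequences were then counted. Among sequences of any origin, 28467 reached 10 reads in each of the untreated wild type and Hen1 knockout libraries, and 151 of them were 5S fragments. In wild type, 37 of these had at least a 2-fold higher share with NaIO4, against untreated wild type, where 12.8% of all sequences did, and 53 had at least a 2-fold lower share, where 42.8% did. In the Hen1 knockout 62 were higher, where 10.2% of all sequences were, and 46 lower, where 68.1% were. The GACCGCC-ending sequences supplied 19 of the 37 and 20 of the 62, out of 20 measured, with median ratios of 7.43 in wild type and 42.8 in Hen1 knockout RNA. The median ratio over all 5S sequences was 0.942 in wild type and 1.27 in Hen1 knockout RNA, and over all sequences of any origin 0.712 and 0.271. On the scale of microRNA reads, 132 of the 151 were higher and 4 lower in wild type, where 70.2% and 15.6% of all sequences were, and 92 were higher and 19 lower in the Hen1 knockout, where 22.2% and 37.2% were. When each distinct 5S sequence was counted once, the wild type share turned to 0.670 times that of untreated RNA.

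The commonest 5S read of 5 libraries, bases 71 to 95, had 81925 reads in wild type with NaIO4, against 12910 in untreated wild type. It had 56270 reads in the Hen1 knockout with NaIO4, against 8657 in the untreated Hen1 knockout. By share, its treated level was 4.52 times the untreated one in wild type and 29.2 times in the Hen1 knockout. The 8 sequences with the highest share averaged over libraries all ended at base 95 and started at bases 68 to 75. The longest read of the set had the largest ratios and the shortest the lowest in wild type: the treated share of reads from base 68 was 16.9 times the untreated one in wild type and 97.6 times in the Hen1 knockout, against 4.34 and 34.4 times for those from base 75. The set shares its 3′ end and differs at its 5′ end.

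bases 68 to 95: ctggttagtacttggatgggaGACCGCC

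bases 75 to 95: gtacttggatgggaGACCGCC

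The NaIO4 ratio was read at the 23 end positions that reached 100 reads in each of the untreated wild type and Hen1 knockout libraries. Base 95 had the highest ratio in both genotypes, 6.51 and 40.7. At base 94 the ratio was 2.71 in wild type (2.28 to 3.21) and 7.79 in the Hen1 knockout (6.79 to 8.95). At base 96 it was 1.99 in wild type (1.81 to 2.19) and 7.45 in the Hen1 knockout (6.51 to 8.54). The median over the positions other than base 95 was 0.764 in wild type and 0.845 in Hen1 knockout RNA, and 9.8 and 2.21 when divided by microRNA reads. Without GACCGCC-ending reads, the treated share of all 5S reads was 0.839 times the untreated one in wild type (0.822 to 0.857) and 1.10 times in the Hen1 knockout (1.07 to 1.13), or 10.8 and 2.87 times when divided by microRNA reads. With them the share was 5.11 times in wild type (5.07 to 5.16) and 25.7 times in the Hen1 knockout (25.5 to 26.0).

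**Figure D3:**
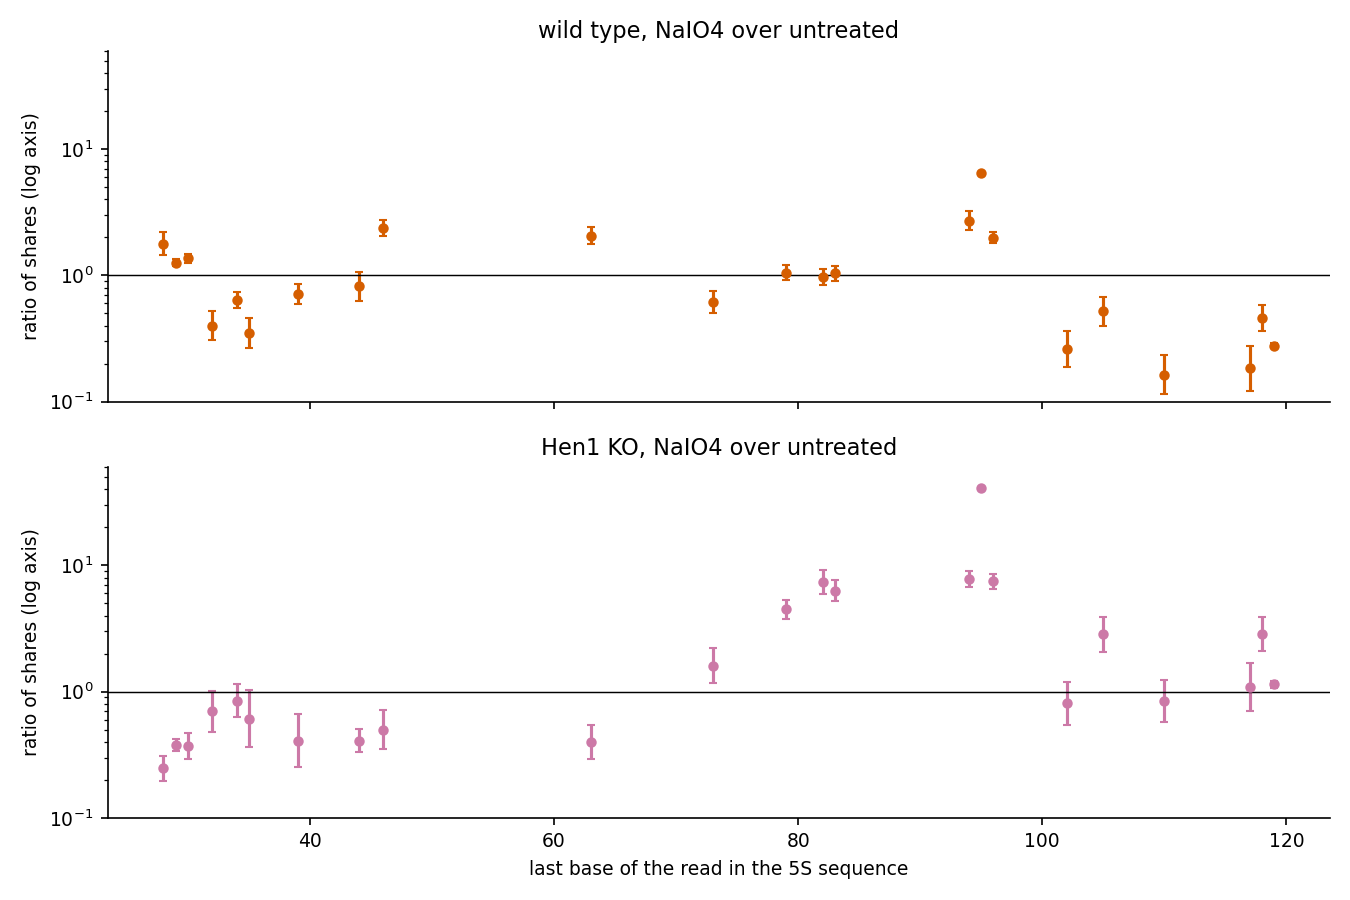
NaIO4-treated over untreated share of 5S reads (log axis) by the last base of the read, with 95% counting intervals, for wild type (top) and the Hen1 knockout (bottom) at 23 positions. Base 95 stands at 6.51 and 40.7, and the next highest position, base 94, at 2.71 and 7.79.

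5′-end reads differed in opposite directions in the 2 genotypes. They numbered 4575 in wild type with NaIO4, against 2440 in untreated wild type, a share 1.34-fold higher (1.27 to 1.40). They numbered 431 in the Hen1 knockout with NaIO4, against 7349 in the untreated Hen1 knockout, a share 3.79-fold lower (ratio 0.264, 0.239 to 0.290). Divided by microRNA reads these ratios were 17.1 and 0.690, so the directions held.

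3′-end reads had the reverse pattern by share. They numbered 2089 in wild type with NaIO4, against 5363 in untreated wild type, a share 3.61-fold lower (ratio 0.277, 0.264 to 0.292), which becomes 3.56-fold higher when divided by microRNA reads. They numbered 1019 in the Hen1 knockout with NaIO4, against 4021 in the untreated Hen1 knockout, a ratio of 1.14 (1.06 to 1.22), or 2.98 when divided by microRNA reads. All 14 measured 3′-end sequences were at least 2-fold lower in treated wild type RNA, where 42.8% of all sequences were, and 3 of 14 in treated Hen1 knockout RNA, where 68.1% were. Divided by microRNA reads, 2 of the 14 were lower and 6 higher in wild type, where 15.6% and 70.2% of all sequences were. The 3 lowest wild type ratios of the 24 sequences that reached 100 reads in each of the untreated wild type and Hen1 knockout libraries belonged to reads that end at base 119 and start at bases 85 to 87, and they contain GACCGCC inside the read: that of bases 86 to 119 had 12 reads with NaIO4, against 211 in untreated wild type.

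The RNA polymerase III transcript carries U residues after base 119, which the annotated genes lack. Reads that reached base 119 and went on with 1 T numbered 851 in wild type with NaIO4, 558 in Hen1 knockout RNA with NaIO4, 5394 in untreated Hen1 knockout RNA, 9679 in the Mili knockout, 590 in the immunoprecipitate and 5439 in untreated wild type. They outnumbered reads that stop at base 119 in the untreated Hen1 knockout, the Mili knockout, the immunoprecipitate and untreated wild type, and were fewer in both NaIO4 libraries. With added T reads of 1 to 3 bases included, the treated share of the 3′-end group was 5.23-fold lower for wild type and 1.33-fold lower for the Hen1 knockout, which turned to 2.45-fold and 1.97-fold higher when divided by microRNA reads.

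Reads of none of these groups numbered 11680 in wild type with NaIO4, against 7761 in untreated wild type, a ratio of 1.07 (1.04 to 1.10). They numbered 3848 in the Hen1 knockout with NaIO4, against 10298 in the untreated Hen1 knockout, a ratio of 1.68 (1.62 to 1.74). These ratios were 13.8 and 4.39 when divided by microRNA reads.

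The comparison of untreated RNA of the Hen1 knockout with wild type asks which fragments depend on the methyltransferase. 5′-end reads had a 1.88-fold higher share in the Hen1 knockout (1.80 to 1.97), while GACCGCC-ending reads were 2.14-fold lower (ratio 0.467, 0.461 to 0.474) and 3′-end reads 2.13-fold lower (ratio 0.469, 0.450 to 0.489). Divided by microRNA reads, the ratios of GACCGCC-ending and 3′-end reads turn to 1.22 each, and that of 5′-end reads becomes 4.90. The whole 5S share was 0.567 times that of wild type (0.560 to 0.573), and it turned to 1.47 times when divided by microRNA reads. It also turned, to 1.38 times, when reads that match any gene other than 5S genes, on either strand, were left out. These include 93.3% to 99.2% of the GACCGCC-ending reads per library, which Tmem38b, a gene on chromosome 4, also holds. Whether that match is sense or antisense is not given here. Feeder fibroblast microRNAs were 1.97% of microRNA reads in the untreated Hen1 knockout and 0.787% in untreated wild type, and 1.76% in the Hen1 knockout with NaIO4 and 0.637% in wild type with NaIO4. Their part in these differences was not tested.

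The 5′-end reads had a shorter mean length in the Hen1 knockout, 28.3 nt against 29.6 nt in wild type. Their commonest length and their median length were the same in both libraries.

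Reads that start at base 20 also had a higher share in the Hen1 knockout, and their commonest length differed. They numbered 1966 in the Hen1 knockout and 349 in wild type, a share 3.52-fold higher (3.15 to 3.95). In the Hen1 knockout 50.6% of them were 25 nt long and ended at base 44, and in wild type 61.9% were 27 nt long and ended at base 46. The read of bases 20 to 44 had 930 copies in the Hen1 knockout (79.5 RPM) and 28 in wild type (3.82 RPM). That of bases 20 to 46 had 275 in the Hen1 knockout (23.5 RPM) and 209 in wild type (28.5 RPM). These positions were chosen after their values were seen, as the 6 starts with the most reads in the immunoprecipitate among reads of none of the 3 end-defined groups. The commonest length at these 6 starts was shorter in the Hen1 knockout than in wild type at bases 20, 2, 40, 35 and 33, by 1 to 4 nt, and the same, 28 nt, at base 12.

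bases 20 to 44: tgaacgcgcccgatctcgtctgatc

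**Figure D4:**
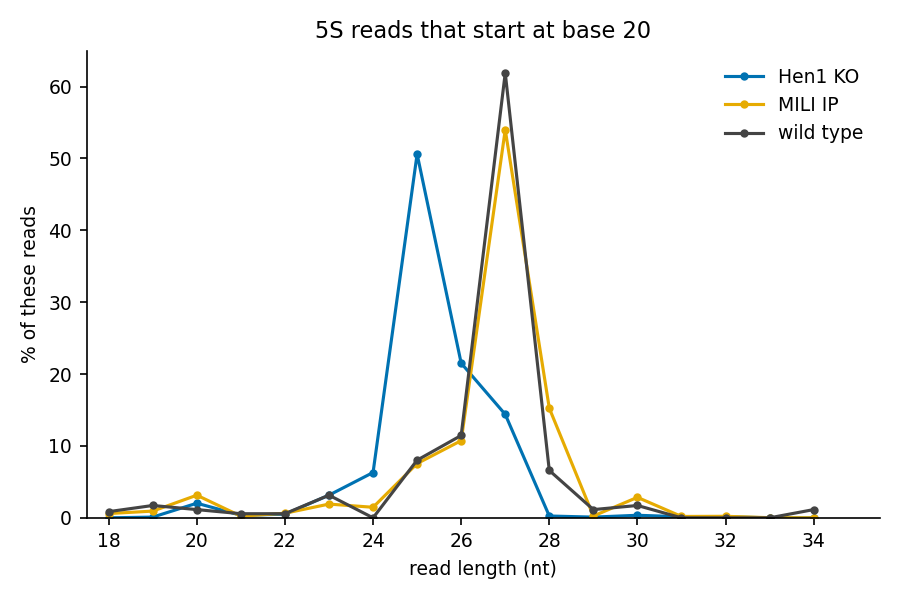
Length distribution (% of the reads shown) of 5S reads that start at base 20 in the untreated Hen1 knockout, the MILI immunoprecipitate (MILI IP) and untreated wild type; the Mili knockout is left out, with 35 reads. The peak of the Hen1 knockout is at 25 nt, against 27 nt in wild type and the immunoprecipitate.

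Extra bases at the 3′ end that no n-R5s gene holds were also commoner in the Hen1 knockout. Percentages here are of exact 5S reads and reads with such bases together. Leaving out bases added after base 119, reads with 1 to 3 such bases were 5.74% in the Hen1 knockout (5.56 to 5.93), against 2.55% in wild type (2.43 to 2.67), and 2.05% to 4.28% in the other 4 libraries. With bases added after base 119 they were 14.2% in the Hen1 knockout (14.0 to 14.5), against 10.9% in wild type (10.6 to 11.1). Of 5′-end reads on the shared sequence, 8.61% had 1 to 3 such bases in the Hen1 knockout (8.0 to 9.25), against 2.04% in wild type (1.51 to 2.68), and T alone made up 68.9% of these tails in the Hen1 knockout (65.3 to 72.4), against 51.0% in wild type (36.3 to 65.6). For reads of neither the 5′ end, the 3′ end nor the stops at bases 92 to 95 it was 14.5% (13.8 to 15.2) in the Hen1 knockout, against 3.16% (2.78 to 3.59) in wild type. For reads that stop at bases 92 to 95 it was 1.58% (1.46 to 1.72) in the Hen1 knockout, against 1.44% (1.33 to 1.55) in wild type, and these intervals overlap. Base 96 of the shared sequence is T, so 1 T added after base 95 counts as an exact read that ends at base 96. Such tails are missed here, so this comparison cannot decide whether T tails of these reads differ between the genotypes. A tail whose bases match the gene cannot be told from the gene, and a changed last base counts as a tail.

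The MILI immunoprecipitate held mainly 5′-end fragments. They numbered 41933 there, against 2440 in untreated wild type, a share 4.99-fold higher (4.79 to 5.19). Their mean length was 29.5 nt in the immunoprecipitate and 29.6 nt in wild type. The 5 commonest ends in the immunoprecipitate were bases 29, 30, 46, 63 and 32, and base 95 was not among them. The fragment of bases 20 to 46 had 2410 reads in the immunoprecipitate (95.5 RPM), against 209 in untreated wild type (28.5 RPM), a ratio of 3.35. GACCGCC-ending reads numbered 1407 in the immunoprecipitate, against 47740 in wild type, a share 117-fold lower (ratio 0.00855, 0.00811 to 0.00902), and 3′-end reads were 54.1-fold lower. Divided by microRNA reads, of which the immunoprecipitate had few, these were 4.98-fold and 2.30-fold lower and the 5′-end reads 117-fold higher. The whole 5S share was 3.17-fold lower than in wild type, which turned to 1.25-fold higher without GACCGCC-ending reads and 7.40-fold higher per microRNA read.

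Of the 151 sequences measured, 25 were at least 2-fold higher in the immunoprecipitate than in untreated wild type, where 16.3% of all sequences were, and 102 at least 2-fold lower, where 52.8% were. All 20 GACCGCC-ending sequences were among the lower ones. By microRNA reads, 67 of the 151 were higher, where 64.1% of all sequences were, and 54 lower, where 23.6% were. Of the 20 GACCGCC-ending sequences, 12 were lower and 1 higher on that scale. Reads that end 1 base further on, at base 96, numbered 951 in the immunoprecipitate and 557 in untreated wild type, a ratio of 0.495 (0.446 to 0.550), which turned to 11.6 when divided by microRNA reads. One of them, bases 69 to 96, had 29.4 RPM in the immunoprecipitate and 31.1 in wild type, whereas bases 69 to 95 had 9.27 RPM in the immunoprecipitate and 428 in wild type.

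bases 69 to 96: tggttagtacttggatgggagaccgcct

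The Mili knockout differed from wild type in the other direction than the immunoprecipitate did for the 3 end-defined groups. GACCGCC-ending reads numbered 106691 in the Mili knockout and 47740 in wild type, a share 3.40-fold higher (3.37 to 3.44). 3′-end reads numbered 8977 in the Mili knockout and 5363 in wild type, a share 2.55-fold higher (2.46 to 2.64). 5′-end reads numbered 639 in the Mili knockout and 2440 in wild type, a share 2.51-fold lower (ratio 0.399, 0.366 to 0.435). Each direction held when the total was microRNA reads, with ratios of 1.92, 1.44 and 0.225. The whole 5S share was 2.95-fold that of wild type (2.92 to 2.98).

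The 5′-end reads of the Mili knockout were longer. Their mean length was 31.5 nt, against 29.6 nt in wild type. The read of bases 20 to 46 had 3 copies in the Mili knockout and 209 in wild type, and that of bases 20 to 44 had 0 in the Mili knockout and 28 in wild type. A count of 0 allows up to 3 reads, or 0.624 RPM, in the Mili knockout. Reads that start at base 20 were 6.55-fold fewer by share. The share of all reads that were 25 to 31 nt long was 19.2% in the Mili knockout and 46.5% in wild type, and many sequences of any origin were lower there. Of the 151 5S sequences, 59 were at least 2-fold higher in the Mili knockout, where 12.5% of all sequences were, and 40 at least 2-fold lower, where 55.9% were. All 20 GACCGCC-ending sequences were among the higher ones. Divided by microRNA reads, 15 of the 20 were higher and 0 lower, where 1.98% and 63.4% of all sequences were.

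Reads that end in GACCGCC often differed from the shared sequence near their 5′ end. These values allow 1 mismatch, and a token such as G70T gives the base of the shared sequence, its position from base 1, and the base read. G70T was present in 16.7% of covering reads in wild type with NaIO4, 16.5% in Hen1 knockout RNA with NaIO4, 3.43% in untreated Hen1 knockout RNA, 5.69% in the Mili knockout and 1.86% in untreated wild type. Both NaIO4 libraries stood above their untreated libraries, and the same order was seen for G71T, at 6.94% in wild type with NaIO4 against 0.600% in untreated wild type, and 7.34% in the Hen1 knockout with NaIO4 against 0.788% in the untreated Hen1 knockout. The frequency of G70T depended on the place in the read. In wild type with NaIO4 it was 22.4% when base 70 was the first base of the read and 19.3% when it was the second. It was 8.46% when base 70 was the third base and 1.10% when it was the fifth. G71T did not fall steadily in that library, at 8.80%, 11.5%, 1.51%, 4.32% and 9.28% from the first to the fifth base. Over all G of the reads, change to T was at 14.0% at the first base of the read in wild type with NaIO4, against 1.97% in untreated wild type, and 0.339% at the eighth, against 0.0426%. Without NaIO4, this change at the first base was also at 10.9% in the immunoprecipitate and 6.61% in the Mili knockout. G70T was at 0.844% of covering reads in the immunoprecipitate.

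**Figure D5:**
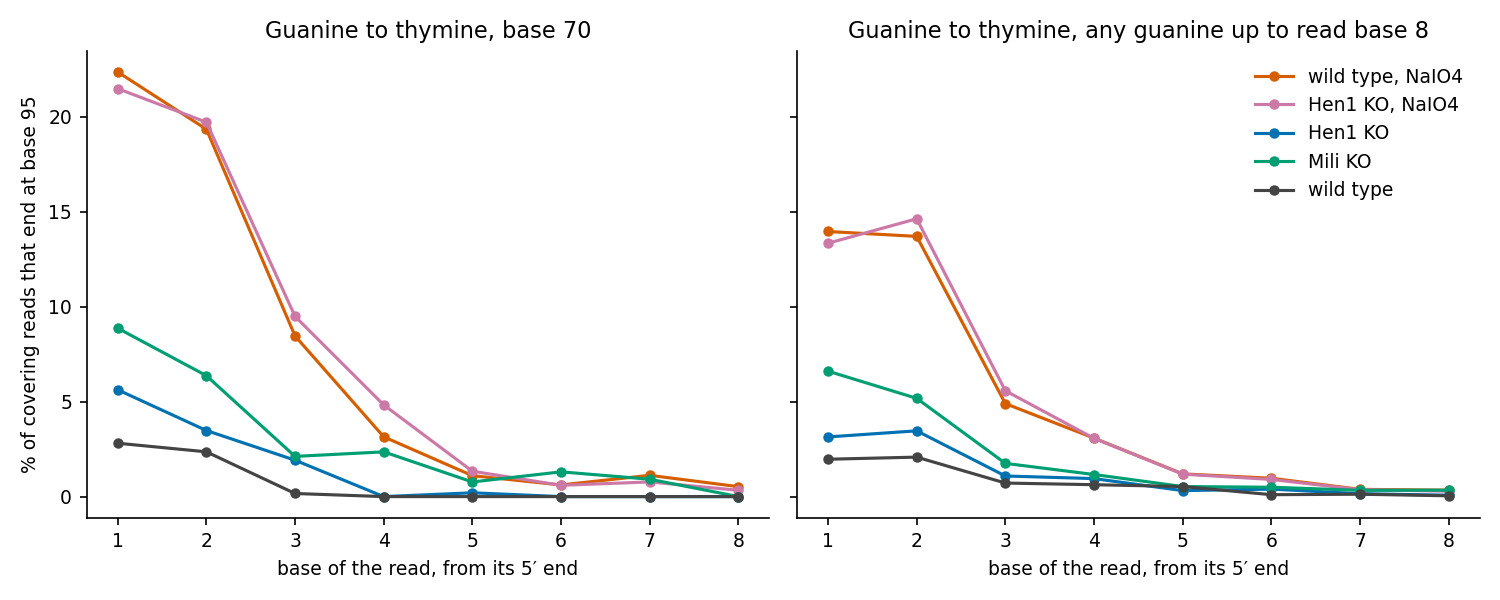
Percent of covering 5S reads that end at base 95 with thymine in place of guanine, by the base of the read counted from its 5′ end, at base 70 (left) and over any guanine (right), in 5 libraries. The MILI immunoprecipitate is left out, with 25 covering reads at the first base for base 70 and 366 for any guanine. The values at the first base in wild type with NaIO4 are 22.4% and 14.0%, against 2.81% and 1.97% in untreated wild type, and every line is lower at the eighth base than at the first.

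The change at base 70 is also held by a variant gene. n-R5s210, on chromosome 1 at 37005439 to 37005557 (plus strand, GRCm38), carries G70T and is identical to the shared sequence at 109 of 119 bases. Reads that matched it alone numbered 27007 in wild type with NaIO4, 17949 in Hen1 knockout RNA with NaIO4, 303 in untreated Hen1 knockout RNA, 1458 in the Mili knockout, 37 in the immunoprecipitate and 166 in untreated wild type, and 26889 of the 27007 ended at base 95. Its leading read, shown with the differing base in capitals, had 12899 reads in wild type with NaIO4, against 79 in untreated wild type. The share of that read was 116 times the untreated one. Whether these reads come from the gene or are changed reads of the shared sequence was not tested. In each library, the reads that matched n-R5s210 alone and ended at base 95 equal in number those counted above with G70T. Both counts thus describe the same reads, which are also among the GACCGCC-ending reads. The other variant genes with the most reads of their own were n-R5s194 on chromosome 3, with 945 reads in the immunoprecipitate, of which 920 start at base 1, against 26 in untreated wild type, and n-R5s136 on chromosome 8, with 507 reads in the immunoprecipitate, against 46 in untreated wild type.

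bases 70 to 95, n-R5s210: Tgttagtacttggatgggagaccgcc

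Changed bases at the 3′ end were also counted. C95T, a T in place of the last base, was at 0.0165% in wild type with NaIO4, against 0.429% in untreated wild type, and at 0.0142% in the Hen1 knockout with NaIO4, against 0.486% in the untreated Hen1 knockout. In 5′-end reads, C28T was at 4.04% in the untreated Hen1 knockout, against 0.245% in untreated wild type, and C29T at 4.38%, against 0.342%. C28T was at 5.66% in the Hen1 knockout with NaIO4 (3.54 to 8.52), an interval that holds the untreated level. Such a change at the last base of a read is the same string as a shorter fragment with an added T.

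Other RNA classes, each taken whole, had lower NaIO4 ratios than the GACCGCC-ending reads, which are 1 end position chosen with earlier results known. All 5S reads without that position stood at 0.839 in wild type and 1.10 in Hen1 knockout RNA, below the 45S-derived values. Single ends of the other classes were not compared. Fragments of 45S-derived rRNA, the precursor of the larger rRNAs, had NaIO4 ratios of 1.00 (0.990 to 1.01) in wild type and 2.93 (2.89 to 2.97) in the Hen1 knockout. Mitochondrial rRNA and tRNA were 8.53-fold lower for wild type and 1.69-fold for the Hen1 knockout, and microRNAs 12.8-fold and 2.62-fold lower. Over microRNA reads, the 45S-derived ratios were 12.9 in wild type and 7.66 in Hen1 knockout RNA, and the mitochondrial ones turned to 1.5 and 1.55. Of 7 other RNA polymerase III transcripts (7SL, 7SK, Y RNA, RNase P RNA, RNase MRP RNA, vault RNA and U6), wild type had none past 2-fold higher under NaIO4 and 3 past 2-fold lower, and the median was 0.661. In the Hen1 knockout 1 was higher, 7SK, which restrains transcription elongation, at 3.29 (2.92 to 3.71), and 3 were lower, with a median of 0.718. Against untreated wild type, 2 of the 7 were at least 2-fold higher in the Mili knockout and 1 lower, and in the immunoprecipitate none was higher and 4 were lower. With microRNA reads as the total, the counts changed to 7 higher and 0 lower with NaIO4 in wild type RNA, 2 and 0 in Hen1 knockout RNA, 0 and 1 in the Mili knockout, and 6 and 0 in the immunoprecipitate.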

How the data were processed

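Each file holds counts of reads per distinct sequence, deposited by the authors with identical reads collapsed, and without a header or scaling (whole numbers with different totals). The tools named are Bowtie, with no version, and the build mm10, per the submitters' processing notes. The sources used here do not give how adapters and lengths were handled or the spike-in sequences, so no absolute amounts were derived. All 6 libraries were used, 1 per group, and no column was left out.

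Reads of 18 to 35 nt were matched without mismatch to GENCODE M21 (GRCm38) transcripts with Python 3.11.15 and numpy 2.4.6; pandas 2.3.3 tabulated the counts and scipy 1.17.1 gave the intervals. Variant genes were aligned to the shared 5S sequence with biopython 1.88, and 8 sequences whose last base has no counterpart there have no end position. Figures used matplotlib 3.10.9. Other genes whose names do not start with n-R5s hold the same reads, searched on either strand. They are Rn5s, rRNA genes with Gm names, and 13 genes of other biotypes. The annotation has 171 rRNA genes with Gm names, and how many of them hold these reads was not counted. Of the 13 genes, Tmem38b holds 93.3% to 99.2% of the GACCGCC-ending reads per library. Ratios are of shares of 18 to 35 nt reads, with 95% Poisson intervals on the log scale, and shares have exact Clopper-Pearson intervals. Reads amplified by PCR, with no molecular identifiers, need not be independent molecules. The fold call on single sequences used 2-fold, 0.5 added to each count, and 10 reads or more in both untreated wild type and untreated Hen1 knockout. It was tested on simulated counts of sequences with 50 reads or more only. Calls on sequences with 10 to 50 reads were therefore not checked in this way. With 1 library per group no p-value was computed.

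Named fragments were the 8 with the highest mean share, the commonest of each library and, among those that reached 100 reads in those libraries, the ones with the 3 highest and 3 lowest NaIO4 ratios per genotype. Single fragments that start at base 1 are not reported here. Fragments named outside this rule were chosen after their values were seen. The members and lists were chosen with earlier results of these data known, and the GACCGCC-ending reads were part of those results. Alternatives covered the total, the counting, the length range, the matching and the fold and read limits.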

Additional observations from a re-analysis of the deposited data

Results flagged for a closer look

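The NaIO4 ratio of 5′-end reads lay on opposite sides of 1 in the 2 genotypes, at 1.34 in wild type and 0.264 in Hen1 knockout RNA. That of 3′-end reads did so too, at 0.277 in wild type and 1.14 in Hen1 knockout RNA. Per microRNA read the 3′-end ratios were 3.56 and 2.98, both above 1, and by share with T-extended reads included they were 0.191 and 0.752, both below 1. With 1 library per group neither difference was tested.

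Reads with 1 mismatch to the shared 5S sequence are not counted among the 5S reads unless a variant gene holds them. Among their changes, G71T and G75T were higher with NaIO4 than in the untreated library of the same genotype. G71T was at 6.94% of covering GACCGCC-ending reads in wild type with NaIO4 and at 7.34% in the Hen1 knockout with NaIO4. G75T was at 4.21% in wild type with NaIO4, against 1.44% in untreated wild type, and at 4.85% in the Hen1 knockout with NaIO4, against 2.15% in the untreated Hen1 knockout. Without NaIO4, G75T was also at 4.65% in the immunoprecipitate (3.51 to 6.03) and 3.61% in the Mili knockout. G71T was at 0.183% in the immunoprecipitate and 1.78% in the Mili knockout.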

How the results depend on the processing

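Ratios of the whole 5S share moved by more than their counting error under nearly all alternatives. The share was compared as NaIO4 over untreated RNA in each genotype, and as the Hen1 knockout, the Mili knockout and the immunoprecipitate over untreated wild type. Per read of any length, the ratio was 5.28 for NaIO4 over untreated in wild type, 24.8 for NaIO4 over untreated in the Hen1 knockout, 4.70 for the knockout NaIO4 ratio over that of wild type, 0.583 for Hen1 knockout over wild type, 2.89 for Mili knockout over wild type and 0.326 for immunoprecipitate over wild type. Per microRNA read, the ratio was 65.6 for NaIO4 over untreated in wild type, 67.4 for NaIO4 over untreated in the Hen1 knockout, 1.03 for the knockout NaIO4 ratio over that of wild type, 1.47 for Hen1 knockout over wild type, 1.67 for Mili knockout over wild type and 7.40 for immunoprecipitate over wild type. With the 10 most abundant sequences of each library left out of the totals and of the 5S reads, which drops 7 5S sequences that hold 1.24% to 74.4% of 5S reads per library, the ratio was 3.73 for NaIO4 over untreated in wild type, 21.2 for NaIO4 over untreated in the Hen1 knockout, 5.68 for the knockout NaIO4 ratio over that of wild type, 0.735 for Hen1 knockout over wild type, 3.12 for Mili knockout over wild type and 0.749 for immunoprecipitate over wild type. With each distinct sequence counted once, the ratio was 0.670 for NaIO4 over untreated in wild type, 5.41 for NaIO4 over untreated in the Hen1 knockout, 8.08 for the knockout NaIO4 ratio over that of wild type, 0.460 for Hen1 knockout over wild type, 4.56 for Mili knockout over wild type and 0.178 for immunoprecipitate over wild type. With reads of 20 to 31 nt, the ratio was 5.21 for NaIO4 over untreated in wild type, 26.7 for NaIO4 over untreated in the Hen1 knockout, 5.12 for the knockout NaIO4 ratio over that of wild type, 3.05 for Mili knockout over wild type and 0.325 for immunoprecipitate over wild type. With reads that match no gene other than n-R5s, which drops nearly all reads because Rn5s and Gm-named genes hold them too, the ratio was 33.4 for NaIO4 over untreated in wild type, 92 for NaIO4 over untreated in the Hen1 knockout, 2.75 for the knockout NaIO4 ratio over that of wild type, 0.955 for Hen1 knockout over wild type, 5.53 for Mili knockout over wild type and 1.963 for immunoprecipitate over wild type. With reads of the shared sequence, the ratio was 4.84 for NaIO4 over untreated in wild type, 24.7 for NaIO4 over untreated in the Hen1 knockout, 5.11 for the knockout NaIO4 ratio over that of wild type and 0.297 for immunoprecipitate over wild type. With up to 1 mismatch to the shared sequence, the ratio was 5.65 for NaIO4 over untreated in wild type, 27.6 for NaIO4 over untreated in the Hen1 knockout, 4.88 for the knockout NaIO4 ratio over that of wild type, 0.585 for Hen1 knockout over wild type, 3.13 for Mili knockout over wild type and 0.309 for immunoprecipitate over wild type. With reads in no gene other than 5S genes of any name, chosen after the data were seen, which drops the GACCGCC-ending reads held by Tmem38b, the ratio was 4.70 for NaIO4 over untreated in wild type, 7.45 for NaIO4 over untreated in the Hen1 knockout, 1.59 for the knockout NaIO4 ratio over that of wild type, 1.38 for Hen1 knockout over wild type, 1.25 for Mili knockout over wild type and 2.92 for immunoprecipitate over wild type. Without GACCGCC-ending reads, also chosen after the data were seen, the ratio was 0.839 for NaIO4 over untreated in wild type, 1.10 for NaIO4 over untreated in the Hen1 knockout, 1.31 for the knockout NaIO4 ratio over that of wild type, 0.871 for Hen1 knockout over wild type, 1.57 for Mili knockout over wild type and 1.25 for immunoprecipitate over wild type. Of 156 values under alternatives, 26 stayed within error, 122 moved and 8 turned direction, these being wild type with NaIO4 for distinct sequences and without GACCGCC-ending reads, the Hen1 knockout per microRNA read and in 5S genes of any name, and the immunoprecipitate per microRNA read, in both matching alternatives and without GACCGCC-ending reads. For the matching alternatives and that without GACCGCC-ending reads the dropped reads are the cause by construction; for the others the cause was not tested.

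The counts of 5S sequences past 2-fold, 37 higher and 53 lower in treated wild type RNA, and 62 higher and 46 lower in treated Hen1 knockout RNA, stayed within 1.5 times without the 10 most abundant sequences. With 50 reads or more in both untreated wild type and Hen1 knockout RNA there were 21 higher with NaIO4 in wild type, 10 lower with NaIO4 in wild type, 21 higher with NaIO4 in the Hen1 knockout and 9 lower with NaIO4 in the Hen1 knockout. At 4-fold there were 19 higher with NaIO4 in wild type, 28 lower with NaIO4 in wild type and 28 lower with NaIO4 in the Hen1 knockout. Per microRNA read there were 132 higher with NaIO4 in wild type, 4 lower with NaIO4 in wild type and 19 lower with NaIO4 in the Hen1 knockout. With reads in no gene other than n-R5s there were 2 higher with NaIO4 in wild type, 2 lower with NaIO4 in wild type, 2 higher with NaIO4 in the Hen1 knockout and 3 lower with NaIO4 in the Hen1 knockout. With reads in no gene other than 5S genes of any name (chosen after the data were seen) there were 5 higher with NaIO4 in wild type, 17 lower with NaIO4 in wild type, 9 higher with NaIO4 in the Hen1 knockout and 22 lower with NaIO4 in the Hen1 knockout.

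Percentages of 5S reads were recomputed in 3 ways. Those with added bases leave out bases added after base 119 and are of exact reads and reads with added bases together. With each distinct sequence counted once, GACCGCC-ending reads were 14.8% in wild type with NaIO4, 20.0% in Hen1 knockout RNA with NaIO4, 8.06% in untreated Hen1 knockout RNA, 15.0% in the Mili knockout, 3.56% in the MILI immunoprecipitate and 8.70% in untreated wild type. At 20 to 31 nt, GACCGCC-ending reads were 96.4% in wild type with NaIO4, 98.7% in Hen1 knockout RNA with NaIO4, 64.3% in untreated Hen1 knockout RNA, 91.6% in the Mili knockout, 1.91% in the MILI immunoprecipitate and 80.9% in untreated wild type. On the shared sequence, GACCGCC-ending reads were 95.8% in wild type with NaIO4, 98.3% in Hen1 knockout RNA with NaIO4, 62.9% in untreated Hen1 knockout RNA and 75.8% in untreated wild type. With each distinct sequence counted once, 5′-end reads were 3.01% in wild type with NaIO4, 2.58% in Hen1 knockout RNA with NaIO4, 4.61% in untreated Hen1 knockout RNA, 2.27% in the Mili knockout, 6.47% in the MILI immunoprecipitate and 3.39% in untreated wild type. At 20 to 31 nt, 5′-end reads were 13.6% in untreated Hen1 knockout RNA, 0.142% in the Mili knockout and 63.0% in the MILI immunoprecipitate. On the shared sequence, 5′-end reads were 1.04% in wild type with NaIO4. With each distinct sequence counted once, 3′-end reads were 1.60% in wild type with NaIO4, 2.21% in Hen1 knockout RNA with NaIO4, 2.40% in untreated Hen1 knockout RNA, 2.48% in the Mili knockout, 1.46% in the MILI immunoprecipitate and 2.55% in untreated wild type. At 20 to 31 nt, 3′-end reads were 0.298% in wild type with NaIO4, 0.207% in Hen1 knockout RNA with NaIO4, 4.47% in untreated Hen1 knockout RNA, 4.48% in the Mili knockout, 0.215% in the MILI immunoprecipitate and 5.27% in untreated wild type. On the shared sequence, 3′-end reads were 0.491% in wild type with NaIO4. With each distinct sequence counted once, reads with 1 to 3 added bases were 28.5% in wild type with NaIO4, 32.1% in Hen1 knockout RNA with NaIO4, 34.5% in untreated Hen1 knockout RNA, 26.5% in the Mili knockout, 30.3% in the MILI immunoprecipitate and 21.5% in untreated wild type. At 20 to 31 nt, reads with 1 to 3 added bases were 2.14% in wild type with NaIO4, 2.27% in Hen1 knockout RNA with NaIO4, 4.01% in the MILI immunoprecipitate and 2.13% in untreated wild type. On the shared sequence, reads with 1 to 3 added bases were 0.925% in wild type with NaIO4, 1.10% in Hen1 knockout RNA with NaIO4, 4.77% in untreated Hen1 knockout RNA, 1.39% in the Mili knockout, 2.79% in the MILI immunoprecipitate and 1.54% in untreated wild type.

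No paired analysis was possible because each group has 1 library and the labels give no replicate numbers. For the same reason none was left out, and clone, culture and library cannot be told apart from genotype or treatment. Depth limits the Hen1 knockout with NaIO4 most, which had the fewest reads.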
